A study of Mus musculus with 24 samples.

Results

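The 39 Hox genes annotated in the mouse lie in 4 clusters, HoxA to HoxD, and every row with the symbol Hoxa, Hoxb, Hoxc or Hoxd followed by a number was taken from the tables of mouse embryonic stem cells (mESC) and of neural progenitor cells (NPC) derived from them. That gave 38 Hox genes listed in at least 1 table, of 17953 genes listed in all, and 24 of the 38 were listed in both. Total RNA had been sequenced from cells of 6 genotypes at Htt, the gene whose CAG repeat is expanded in Huntington disease: unmodified cells (wild type, WT), a knockout of Htt (KO), and 4 knock-in lines, heterozygous for the edited allele, titled Q20, Q50, Q92 and Q111 after their CAG repeat length, where the growth protocol gives 89 repeats for the line titled Q92. Each genotype had 2 replicates in each cell type, so 24 libraries. The mESC grew with LIF on irradiated mouse fibroblast feeders, and the NPC were made as a monolayer in N2B27 medium and then kept with EGF and FGF on laminin. The labels name a single line per genotype and do not say how the WT and KO lines were made, so a difference between genotypes and a difference between lines or between their differentiations cannot be told apart. Nothing in the labels says how separate the replicates' cultures were, and p-values then measure only the spread between these samples.

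Hox genes encode homeodomain transcription factors that give cells their position along the head to tail axis. Within a cluster the genes stand in the order in which they are used: paralogue groups 1 to 4 at the 3′ end (here called anterior) are read early and reach into the hindbrain, groups 5 to 8 (central) mark the cervical and thoracic levels, and groups 9 to 13 (posterior) mark lower trunk, limb and tail levels. Retinoic acid, FGF and Wnt signals open the clusters step by step, Polycomb complexes keep the unread part silent, and PBX and MEIS proteins bind DNA together with HOX proteins. Forebrain and midbrain cells keep the clusters closed.

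By GENCODE M21 on GRCm38, HoxA spans chr6:52155590-52260880, HoxB chr11:96194316-96368256, HoxC chr15:102921103-103036852 and HoxD chr2:74668310-74765142. The table of NPC listed 25 Hox genes: 10 of 12 anterior, all 11 central and 4 of 16 posterior genes (Hoxa9, Hoxa10, Hoxb9 and Hoxd9). The mESC table listed 37, among them 15 posterior genes. Hoxc11 was in neither table. Of the noncoding RNAs of the clusters, 0 of the 19 looked for were listed in NPC, and 99.8% of the NPC genes matched to GENCODE were protein coding. A gene was tested when at least 2 libraries of its cell type reached 1 CPM (the authors' read counts scaled to library size), which 21 Hox genes did in NPC and 4 in mESC. Since a gene may pass through the genotype where it is high, counts over tested genes are not counts over all Hox genes.

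The promoters of 3 neighbours of HoxA are shown because their genes parted in the comparisons below: Hoxa5 was not called in KO and was lower in Q111, Hoxa7 was called higher in KO, Q20 and Q92, and Hoxa9 was higher in KO and Q92 and lower in Q20, Q50 and Q111. Each run holds the 250 bases before and 50 after the transcript start given by RefSeq (GRCm38.p6, minus strand, written 5′ to 3′), at chr6:52204538-52204837 for Hoxa5, chr6:52218524-52218823 for Hoxa7 and chr6:52227321-52227620 for Hoxa9. Capitals mark CG dinucleotides, the sites of DNA methylation.
Hoxa5: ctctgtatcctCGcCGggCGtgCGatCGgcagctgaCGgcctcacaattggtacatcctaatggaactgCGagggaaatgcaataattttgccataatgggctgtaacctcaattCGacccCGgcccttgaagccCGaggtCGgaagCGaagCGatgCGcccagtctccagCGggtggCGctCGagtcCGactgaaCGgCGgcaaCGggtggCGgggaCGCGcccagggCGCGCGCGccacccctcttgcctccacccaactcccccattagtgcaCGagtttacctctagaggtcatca
Hoxa7: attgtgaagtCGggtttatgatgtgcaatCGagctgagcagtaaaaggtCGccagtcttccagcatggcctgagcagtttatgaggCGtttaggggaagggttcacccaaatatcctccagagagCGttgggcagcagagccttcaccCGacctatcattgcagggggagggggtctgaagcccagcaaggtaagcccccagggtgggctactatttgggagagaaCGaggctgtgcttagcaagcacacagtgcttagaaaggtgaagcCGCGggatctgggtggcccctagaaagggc
Hoxa9: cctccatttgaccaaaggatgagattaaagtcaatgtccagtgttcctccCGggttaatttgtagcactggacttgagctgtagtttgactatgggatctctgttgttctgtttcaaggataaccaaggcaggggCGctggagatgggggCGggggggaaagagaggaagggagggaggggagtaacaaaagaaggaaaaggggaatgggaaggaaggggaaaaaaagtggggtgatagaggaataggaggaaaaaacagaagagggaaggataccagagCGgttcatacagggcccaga
The Hoxa5 window held 29 CG, the Hoxa7 window 9 and the Hoxa9 window 4. By GENCODE M21 the 5′ end of Hoxa5 lies at 52204587, inside its window. Those of Hoxa7 (52221854) and Hoxa9 (52231089) lie upstream of theirs, so these counts are of starts inside the annotated gene. RefSeq promoters were matched for 22 Hox genes (24 promoters), with a median of 14.5 CG in 300 bases and a range from 4 to 45, against a median of 7 over all 32851 promoters of that length. The CDX type motif CATAAA, searched on both strands, was in 5 of the 24 Hox promoters (20.8%) and in 11.9% of all promoters, and the Hoxa7 window held 2 matches. The PBX and HOX type motif TGATNNAT was in 4 of the 24 (16.7%) against 8.85%. Other strings counted were also in a larger share of Hox promoters, CCAAT in 62.5% against 37.4% and TATAAA in 16.7% against 13.6%. A match is a string of letters and does not show binding.

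The 12 NPC libraries held 48525333 to 118038952 reads and the 12 mESC libraries 58546211 to 81502284, recovered as whole reads from the authors' CPM. In NPC, 11 to 13 of the 13 listed neural progenitor markers were at 1 CPM or more in both libraries of every genotype, while in mESC all 10 pluripotency markers were. Htt stood at 137 and 177 CPM in WT NPC and at 100 and 94.9 in KO NPC (log2 change -0.67, SE 0.14, adjusted p = 0.0673 in limma), so Htt reads were still counted in the libraries labelled KO. In mESC the library labelled KO replicate 1 had 139 CPM of Htt, above both WT libraries at 124 and 113, and replicate 2 had 68.5. Values below for KO are those of the libraries so labelled.

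In NPC the Hox genes differed among the genotypes in level and in how many reached 1 CPM. The summed level of the 25 genes was 83.8 and 75 CPM in WT, 148 and 163 in KO, 72.5 and 71.6 in Q20, 19.5 and 23.8 in Q50, 233 and 238 in Q92, and 2.37 and 2.18 in Q111. No genotype's libraries overlapped WT on this sum, and those of Q20 lay closest to it. The number of Hox genes at 1 CPM or more in both libraries was 9 of 25 in WT, 20 in KO, 11 in Q20, 6 in Q50, 18 in Q92 and 0 in Q111. These are bulk samples, in which fewer cells with an open cluster and less RNA per cell cannot be told apart. A test of any difference among the 6 genotypes, fitted over all genes with limma, called 20 of the 21 tested Hox genes (adjusted p from 1.06e-06 for Hoxa9 to 0.0276 for Hoxb8), where 38% of all 13206 genes tested were called.

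**Figure D1:**
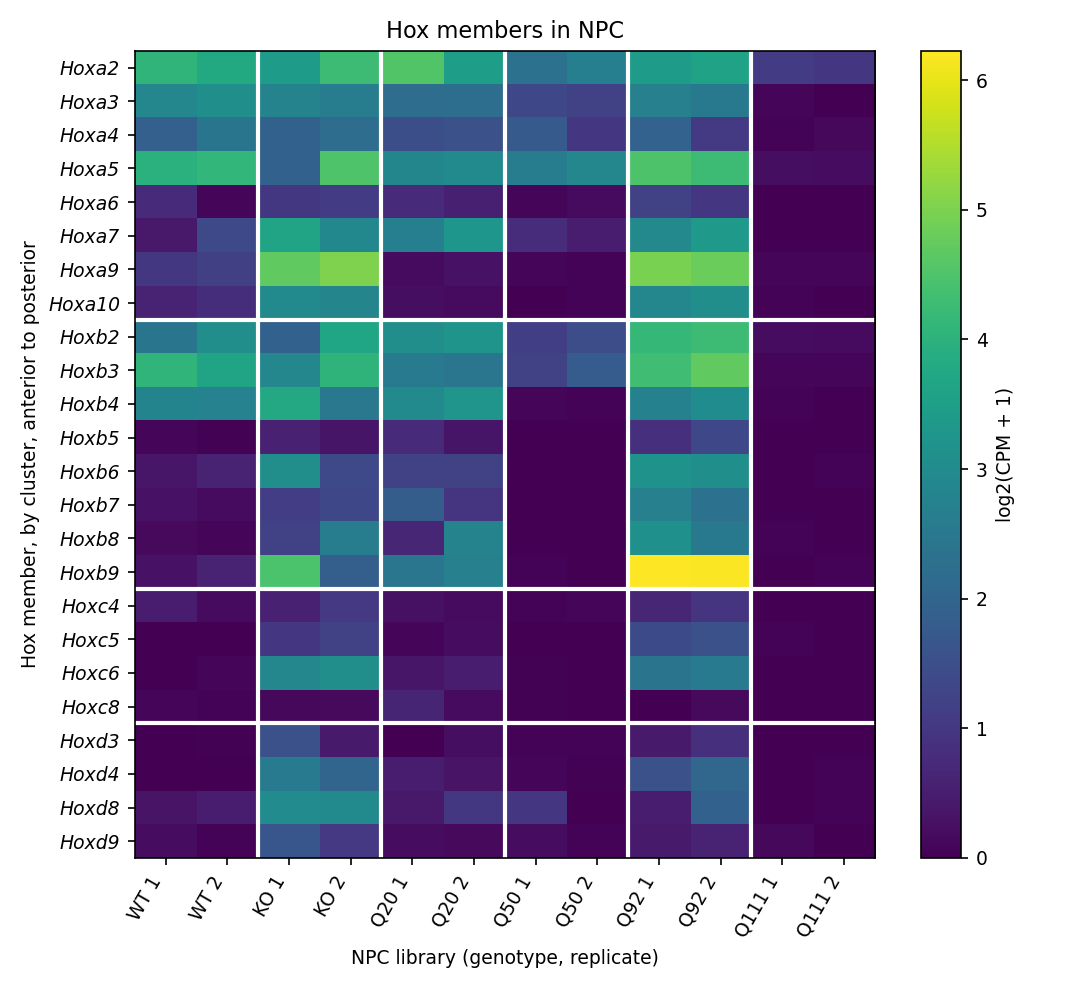
Colour gives log2(CPM + 1) for 24 of the 25 Hox genes listed in NPC (rows, by cluster and from anterior to posterior) in each of the 12 NPC libraries (columns, genotype and replicate). KO and Q92 libraries are bright into the rows of paralogue groups 9 and 10, the Hoxb9 row is brightest in Q92 at 73.9 and 72.5 CPM, and the Q111 columns are dark throughout.

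Divided by exon length so that genes can be added, the anterior genes took 71.9% and 65% of the summed Hox CPM per kb in WT, 65.3% and 52.8% in Q20, 60.9% and 65.7% in Q50 and 82.9% and 85.4% in Q111. In KO they took 37.5% and 42.9%, and in Q92 24.6% and 28.4%. The anterior sum itself overlapped among WT (25.1 and 19.9 CPM per kb), KO (20 and 25.7) and Q92 (21.1 and 24.6). The posterior sum did not overlap, at 0.51 and 0.684 CPM per kb in WT, 15.8 and 9.12 in KO and 36.3 and 35.5 in Q92. The central sum was 9.31 and 10 CPM per kb in WT, 17.5 and 25.1 in KO and 28.6 and 26.5 in Q92. Q50 had 5.47 and 7.11 CPM per kb of anterior and 0.0978 and 0.0336 of posterior genes, and Q111 0.93 and 0.9 of anterior genes.

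**Figure D2:**
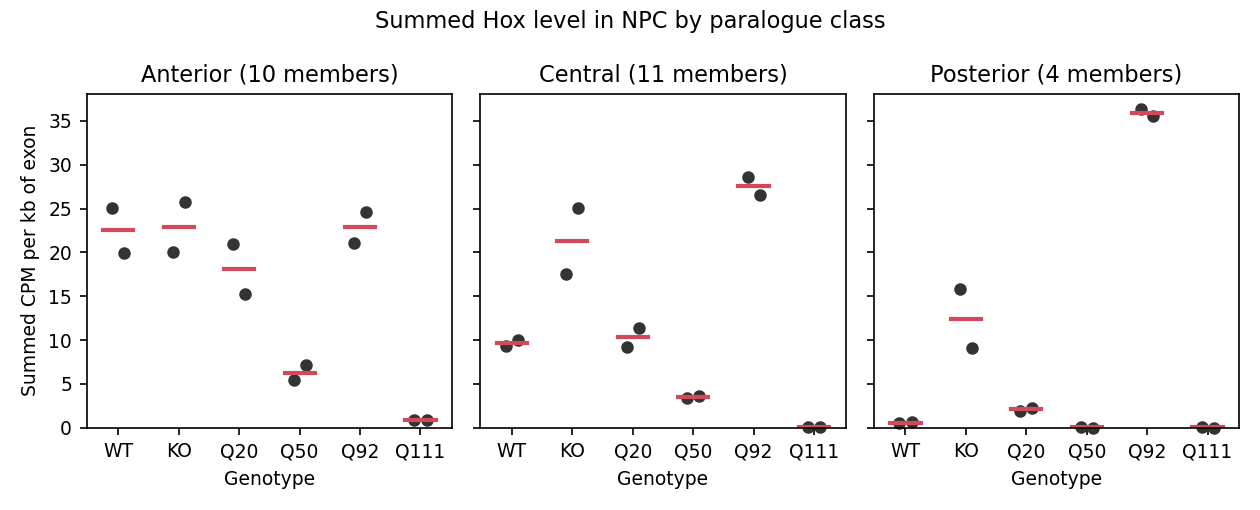
Each point is 1 NPC library and each bar the mean of a genotype's 2 libraries. The y axis is the summed CPM per kb of exon of the 10 anterior, 11 central or 4 posterior Hox genes. The anterior sums of WT, KO and Q92 overlap, while the posterior sums of KO (9.12 and 15.8) and Q92 (35.5 and 36.3) lie above every other library.

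The order of the genes by mean level per kb also changed with genotype. Hoxa5 (8.36 CPM per kb) and Hoxa2 (8.08) led in WT. Hoxa2 led in KO (7.97) before Hoxa5 (6.57) and Hoxa9 (5.08), and in Q20 (9.15) before Hoxa5 (3.47). In Q92 Hoxb9 led with 28.4 CPM per kb, followed by Hoxa5 at 10.5. In Q111 Hoxa2 led with 0.592. Hoxa2 and Hoxa5 were among the 3 highest genes in all 6 genotypes. Their values per kb overlapped between libraries in WT, KO and Q50, so their order there was not beyond the spread, and did not overlap in Q20.

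The anterior genes of HoxA and HoxB, which pattern the hindbrain, were read in WT, KO, Q20 and Q92 and were low in Q50 and near 0 in Q111. Hoxa2, needed for the second branchial arch and rhombomere identity, was at 15.9 and 12.8 CPM in WT, 9.87 and 18.4 in KO, 22.2 and 10.3 in Q20, 4.1 and 5.4 in Q50, 9.76 and 11 in Q92 and 1.11 and 0.992 in Q111. Hoxa3, which acts in the pharyngeal arches, thymus and parathyroid, was at 6.39 and 7.65 CPM in WT, 5.91 and 5.21 in KO, 3.71 and 3.75 in Q20, 1.53 and 1.33 in Q50, 5.6 and 4.75 in Q92 and 0.0677 and 0 in Q111. Every other library lay below both WT libraries of Hoxa3, and Q111 was lowest. Hoxb2, a hindbrain gene downstream of Krox20, was at 4.34 and 7.45 CPM in WT, 2.79 and 11.9 in KO, 7.43 and 8.33 in Q20, 1.24 and 1.75 in Q50, 16.6 and 18.2 in Q92 and 0.162 and 0.128 in Q111. Hoxb3 was at 15.9 and 11.4 CPM in WT, 6.38 and 15.5 in KO, 4.83 and 4.47 in Q20, 1.35 and 2.5 in Q50, 19 and 25 in Q92 and 0.0542 and 0.0851 in Q111. The KO libraries of Hoxb2 lay on either side of the WT values, and those of Hoxb3 overlapped them.

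Of the 11 central genes, 10 had a higher mean log2(CPM + 1) than WT in KO, 10 in Q92 and 10 in Q20. The exception was Hoxa5 in KO and Hoxc8 in Q92. The median central change was 1.10 in KO, 1.47 in Q92 and 0.39 in Q20, so the count alone does not set KO and Q92 apart. All 4 posterior genes were higher in KO and in Q92, and 2 of the 4 in Q20. The median change over all genes was 0.02 in KO and 0.01 in Q92 and in Q20. Hoxa7, a thoracic gene, was at 0.35 and 1.6 CPM in WT, 11.4 and 6.54 in KO, 5.45 and 8.61 in Q20, 0.716 and 0.4 in Q50, 6.64 and 9.07 in Q92 and 0 and 0.0142 in Q111. Hoxa9, a regulator of trunk and limb levels and of blood progenitors, was at 1.02 and 1.25 CPM in WT, 24.9 and 31.7 in KO, 0.137 and 0.236 in Q20, 0.058 and 0.0353 in Q50, 30.6 and 26.9 in Q92 and 0.0677 and 0.0709 in Q111. Hoxa10, which acts in lumbar skeleton and uterus, was at 0.543 and 0.761 CPM in WT, 6.95 and 6.17 in KO, 0.174 and 0.139 in Q20, 0 and 0.0353 in Q50, 6.42 and 7.49 in Q92 and 0.0406 and 0 in Q111. For Hoxa9 and Hoxa10 the libraries fell into 3 levels, KO and Q92 at the top, WT in between, and Q20, Q50 and Q111 lowest. Hoxa5, which acts in lung and cervical skeleton, was at 14.9 and 16.5 CPM in WT, 2.81 and 21.9 in KO, 6.21 and 6.83 in Q20, 5.12 and 6.31 in Q50, 21.4 and 18.2 in Q92 and 0.176 and 0.156 in Q111.

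In HoxB the posterior gene Hoxb9, of thoracic levels, was at 0.228 and 0.54 CPM in WT, 21.1 and 2.71 in KO, 4.47 and 5.54 in Q20, 0.0387 and 0 in Q50, 73.9 and 72.5 in Q92 and 0 and 0.0425 in Q111. The KO libraries of Hoxb9 differed widely and both lay above WT. Hoxb6 was at 0.298 and 0.528 CPM in WT, 7.5 and 1.58 in KO, 1.35 and 1.35 in Q20, 0 and 0 in Q50, 8.17 and 7.61 in Q92 and 0 and 0.0425 in Q111. Hoxb8 was at 0.123 and 0.0859 CPM in WT, 1.36 and 5.23 in KO, 0.584 and 5.9 in Q20, 0 and 0 in Q50, 7.79 and 4.71 in Q92 and 0.0406 and 0 in Q111. Over the 25 genes, 8 differed by more than 1 on the log2(CPM + 1) scale between the KO libraries, with Hoxa5 the farthest apart (2.59), against 1 gene in WT, 2 in Q20, 1 in Q50, 1 in Q92 and 0 in Q111.

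In WT 0 of the 4 listed genes of HoxC and 0 of the 4 of HoxD were at 1 CPM or more in both libraries, while in KO 1 of HoxC and 3 of HoxD were, and in Q92 2 of HoxC and 1 of HoxD. Hoxc6, a thoracic gene, was at 0 and 0.0614 CPM in WT, 6.41 and 7.45 in KO, 0.298 and 0.397 in Q20, 0.0193 and 0 in Q50, 4.23 and 4.8 in Q92 and 0 and 0 in Q111. Hoxc5 was at 0 CPM in both WT libraries, 0.985 and 1.31 in KO, 0.0621 and 0.161 in Q20, 0 and 0 in Q50, 1.63 and 1.91 in Q92 and 0.0406 and 0 in Q111. Hoxd4 was at 0 CPM in both WT libraries, 5.04 and 3.05 in KO, 0.422 and 0.257 in Q20, 0.0774 and 0.0235 in Q50, 1.9 and 3.13 in Q92 and 0 and 0.0425 in Q111. Hoxd4 and its neighbour Hoxd3 share exon sequence on the same strand (52.3% of the exon length of Hoxd4, 62.3% of that of Hoxd3, with the readthrough gene Gm28230), so their counts are uncertain. Hoxd8 was at 0.263 and 0.38 CPM in WT, 7.02 and 6.69 in KO, 0.335 and 1.02 in Q20, 0.967 and 0.0118 in Q50, 0.413 and 2.83 in Q92 and 0 and 0.0425 in Q111. Hoxd9 was at 0.158 and 0.0368 CPM in WT, 2.15 and 1.06 in KO, 0.162 and 0.118 in Q20, 0.155 and 0.0353 in Q50, 0.363 and 0.5 in Q92 and 0.0948 and 0 in Q111. Both KO libraries lay above all other libraries for Hoxd8 and Hoxd9.

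Hoxd3 was at 0 and 0.0245 CPM in WT, 1.92 and 0.371 in KO, 0 and 0.172 in Q20, 0.0387 and 0.047 in Q50, 0.363 and 0.797 in Q92 and 0 in both Q111 libraries. Hoxc4 was at 0.385 and 0.135 CPM in WT, 0.493 and 1.05 in KO, 0.211 and 0.129 in Q20, 0.0387 and 0.0823 in Q50, 0.578 and 0.954 in Q92 and 0 in both Q111 libraries. These genes, with Hoxb5 (at most 1.53 CPM, in Q92) and Hoxc8 (at most 0.572 CPM, in Q20), were listed in NPC and were too low to be tested. Hoxa3, Hoxa4, Hoxa7, Hoxb2, Hoxb3 and Hoxb5 overlap exons of antisense RNAs, as do Hoxd3 and Hoxd4, and whether counting used strand is not given in the sources used here.

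**Figure D3:**
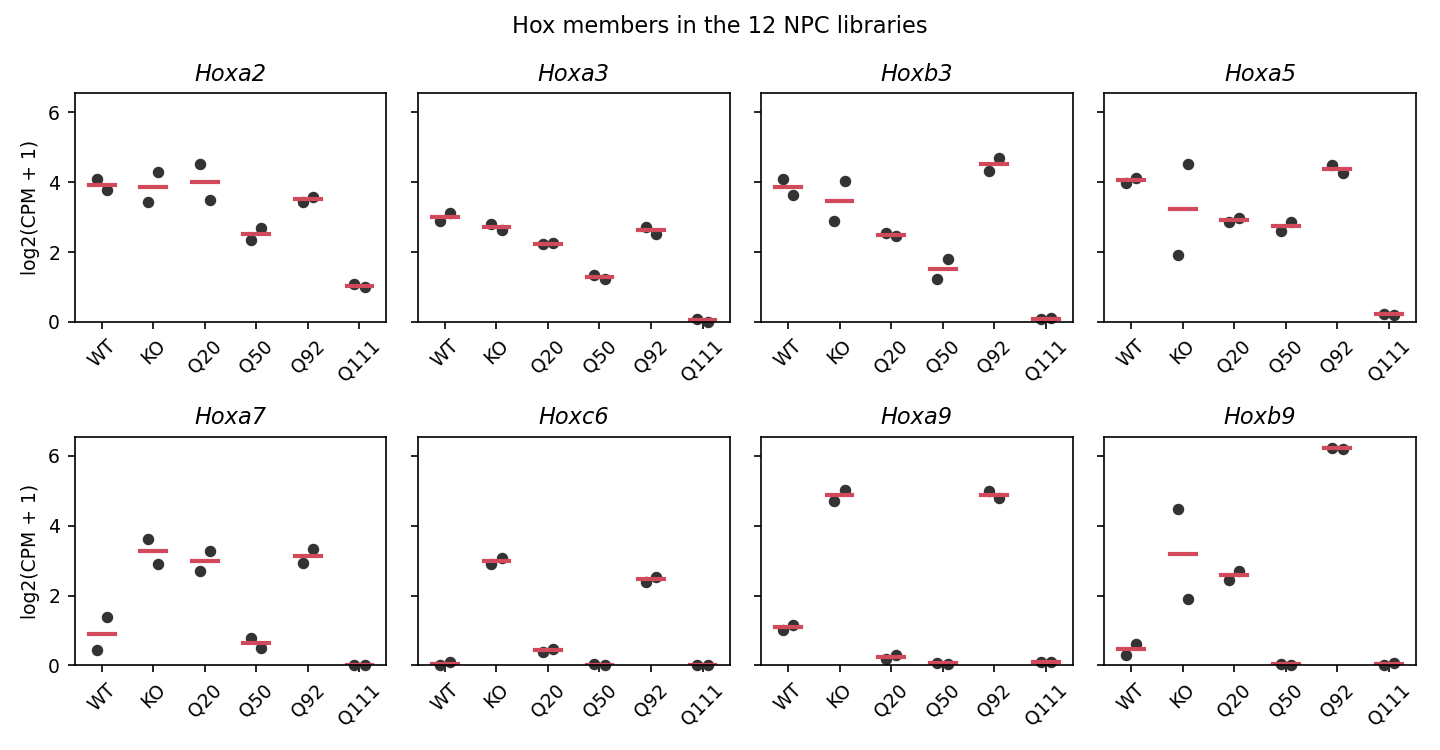
Each panel is a Hox gene, each point 1 of the 12 NPC libraries and each bar the mean of a genotype's 2 libraries, on the log2(CPM + 1) scale of the tests. Hoxa2, Hoxa3, Hoxb3 and Hoxa5 fall to their lowest in Q111, while Hoxc6, Hoxa9 and Hoxb9 stand above WT in KO and Q92.

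The comparison of KO with WT NPC asks whether loss of Htt alters the reading of the clusters. limma on log2(CPM + 1) with Benjamini-Hochberg adjustment called 8 of the 21 tested Hox genes higher and 0 lower (38.1%), where 0.878% of all genes tested were called higher and 0.545% lower. Of the anterior genes 1 of 8 was called (Hoxd4), of the central genes 4 of 9 (Hoxa7, Hoxc5, Hoxc6 and Hoxd8) and of the posterior genes 3 of 4 (Hoxa9, Hoxa10 and Hoxd9). Hoxd9 reached 1 CPM in the 2 KO libraries only and was tested through them. Its call therefore adds no support of its own to the counts of 3 of 4 and 8 of 21. Hoxa9 rose 25-fold in mean CPM (log2 change 3.77, SE 0.16, adjusted p = 5.8e-05). Hoxc6 rose 226-fold from 0.0307 CPM (2.94, SE 0.12, adjusted p = 5.8e-05) and Hoxa10 10.1-fold (2.19, SE 0.13, adjusted p = 0.000449). The WT mean of Hoxc6 came from replicate 2 alone, where 1 read was worth 0.0123 CPM, so its ratio rests on few reads. Against 3 reads over the WT group, Hoxd4 was at least 184-fold higher (2.31, SE 0.22, adjusted p = 0.00269) and Hoxc5 at least 53.5-fold higher (1.10, SE 0.11, adjusted p = 0.00435). Hoxa7 rose 9.22-fold (adjusted p = 0.0259), Hoxd9 16.5-fold (adjusted p = 0.0256) and Hoxd8 21.3-fold (adjusted p = 0.0418). Hoxb9 was 31.1-fold higher in mean CPM without passing the test (2.72, SE 0.66, adjusted p = 0.111). The changes of Hoxa2 (-0.07, SE 0.38) and Hoxa3 (-0.29, SE 0.16) were not called. edgeR's quasi-likelihood test on the recovered reads called 3 Hox genes (Hoxa9, Hoxc6 and Hoxd4), Hoxd8 was not called with a pseudocount of 0.25, and a fit on the 4 WT and KO libraries alone called 0 Hox genes and 0 of all genes. Without WT replicate 2, 1577 genes were called in place of 188, with 8 Hox genes as before.

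Q92 against WT gave a change of like form by paralogue class but not by cluster. Of HoxB, 0 of 7 tested genes were called in KO and 4 of 7 in Q92, and of HoxD 3 of 3 in KO and 1 of 3 in Q92. Here 10 of 21 Hox genes were called higher and 0 lower, where 3.42% of all genes tested were called higher and 5.25% lower: 1 of 8 anterior (Hoxd4), 6 of 9 central and 3 of 4 posterior genes. Hoxb9 rose 191-fold in mean CPM (log2 change 5.75, SE 0.66, adjusted p = 0.00202), Hoxa9 25.3-fold (3.80, SE 0.16, adjusted p = 2.59e-05) and Hoxb8 59.9-fold (2.68, SE 0.65, adjusted p = 0.0419). The other called genes were Hoxa7, Hoxa10, Hoxb6, Hoxb7, Hoxc5, Hoxc6 and Hoxd4. Hoxd8 and Hoxd9 were called in KO and not in Q92. KO and Q92 were each set against the same WT libraries, and the difference between KO and Q92 was not tested. edgeR called 10 as well, and a fit on the WT and Q92 libraries alone called 0 Hox genes and 1 of all genes.

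In Q111 against WT the change ran the other way. limma called 10 of 21 Hox genes lower and 0 higher, where 7.9% of all genes tested were called lower and 8.74% higher: 7 of 8 anterior, 1 of 9 central and 2 of 4 posterior genes. Hoxa5 fell by 3.84 on the log2 scale (SE 0.66, adjusted p = 0.00816; 94.5-fold lower in mean CPM), Hoxb3 by 3.76 (SE 0.38, adjusted p = 0.000585; 196-fold) and Hoxa3 by 2.95 (SE 0.16, adjusted p = 2.5e-05; 207-fold). The ratio of Hoxa3 rests on few reads, since in Q111 only replicate 1 held any, where 1 read was worth 0.0135 CPM. Hoxa2, Hoxa4, Hoxa9, Hoxa10, Hoxb2 and Hoxb4 were also among the genes called lower. Most central genes and the posterior genes Hoxb9 and Hoxd9 were under 1 CPM in WT, where a fall moves log2(CPM + 1) little. On the recovered reads edgeR called 14 Hox genes, the same 10 and the central genes Hoxa6, Hoxa7, Hoxb6 and Hoxb7. Without Q111 replicate 1, 4 Hox genes were called, and without replicate 2, 5. A fit on the WT and Q111 libraries alone called 0 of all genes.

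The change in Q50 was smaller and also downward. limma called 5 of 21 Hox genes lower and 0 higher, where 2.08% of all genes tested were called lower and 4.54% higher. Hoxb4 fell by 2.72 on the log2 scale (SE 0.35, adjusted p = 0.00271; 127-fold lower in mean CPM), Hoxb3 by 2.33 (SE 0.38, adjusted p = 0.0094) and Hoxa3 by 1.72 (SE 0.16, adjusted p = 0.000452), and Hoxa9 and Hoxa10 were the others. The ratio of Hoxb4 rests on few reads in Q50, where HoxB summed to 2.69 and 4.29 CPM, most of it from Hoxb2 and Hoxb3. Besides the central genes Hoxb6 and Hoxb7, edgeR called 4 of the 5 genes called by limma, all but Hoxa3. Without Q50 replicate 1, 2 of them were called, and without replicate 2, 3.

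Q20, the line with the shortest repeat, had 2 Hox genes higher than WT and 4 lower, or 6 of 21, where 9.97% of all genes tested were called higher and 4.57% lower. The upward count, 2 of 21, was near the share of all genes called higher. Hoxa7 rose 7.23-fold (log2 change 2.07, SE 0.37, adjusted p = 0.00636) and Hoxb7 9.66-fold (1.15, SE 0.26, adjusted p = 0.0206). Hoxb3 fell by 1.36 (SE 0.38, adjusted p = 0.0474), Hoxa9 by 0.85 (SE 0.16, adjusted p = 0.0102), Hoxa3 by 0.76 (SE 0.16, adjusted p = 0.0141), and Hoxa10 was lower too. Without Q20 replicate 1, 2 were called, of which only Hoxa7 was among the 6, and without replicate 2, Hoxa9 and Hoxb7 were called. Hoxb3 was not called with a pseudocount of 0.25, without the filter or in edgeR, and edgeR did not call Hoxa3 or Hoxa10 either. A fit on the WT and Q20 libraries alone called 476 of all genes and 1 Hox gene (Hoxb9, which was not among the 6).

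**Figure D4:**
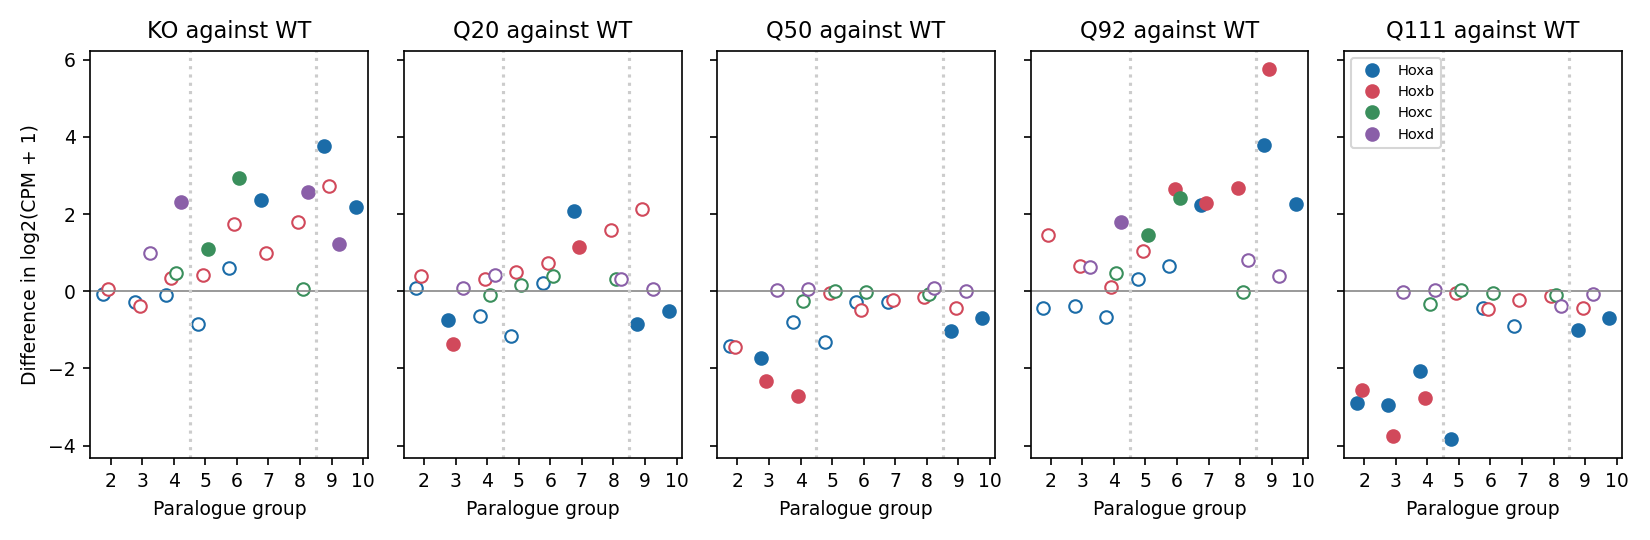
Each panel sets a genotype against WT in NPC. Each point is 1 of 24 of the 25 listed Hox genes at its paralogue group (x axis), with the difference of group means of log2(CPM + 1) on the y axis, coloured by cluster, and filled points passed the limma test. Filled points lie above 0 from group 4 onward in KO and Q92 and lie below 0 mostly in groups 2 to 5 in Q111.

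Set along the clusters, the changes can be described by the medians over all 25 listed genes, for which no test was made. The KO change had a median of -0.01 over 10 anterior, 1.10 over 11 central and 2.46 over 4 posterior genes, so posterior minus anterior was 2.47. In Q92 these medians were 0.29, 1.47 and 3.03 (difference 2.74). In Q111 they were -2.50, -0.24 and -0.56 (difference 1.94), where the anterior genes fell from higher WT levels. Q50 gave 0.68 and Q20 -0.22. The median change over all 16024 genes lay between -0.00 and 0.02 in these comparisons. Without KO replicate 1 the KO difference was 1.51. The sign turned for Q20 (0.06 over the tested genes only, 0.04 without Q20 replicate 1) and for Q50 (-0.07 with a pseudocount of 0.25).

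The knock-in lines were also compared with Q20, whose repeat is in the unexpanded range. Q50 had 8 of 21 Hox genes lower and 0 higher than Q20 (10.7% of all genes tested were lower and 8.05% higher), among them Hoxb4 (-3.04, SE 0.35, adjusted p = 0.000534), Hoxb9 (-2.55, SE 0.66, adjusted p = 0.0286) and Hoxa7 (-2.35, SE 0.37, adjusted p = 0.00299). Q111 had 12 lower and 0 higher (16.1% of all genes tested were lower and 12.2% higher), led by Hoxb4 (-3.07, SE 0.35, adjusted p = 0.000478), Hoxa2 (-2.98, SE 0.38, adjusted p = 0.000879) and Hoxa7 (-2.97, SE 0.37, adjusted p = 0.000783). Q92 had 9 higher and 0 lower (9.88% of all genes tested were higher and 15.9% lower), led by Hoxa9 (4.65, SE 0.16, adjusted p = 1.13e-06), Hoxb9 (3.63, SE 0.66, adjusted p = 0.00493) and Hoxa10 (2.78, SE 0.13, adjusted p = 4.94e-06). Without any 1 of the 4 libraries compared, 4 to 5 were called in Q50 against Q20, and 7 in Q111 against Q20 without Q20 replicate 2 or either Q111 replicate. The summed level did not follow the repeat length in order: it was low in Q50, highest in Q92 and lowest in Q111. In a limma fit of log2(CPM + 1) on CAG length over the 8 knock-in libraries, 0 of 21 Hox genes were called, where 22% of all genes tested were. At an unadjusted p under 0.05 there was 1, Hoxa2 (-2.02 over the 91 repeats between 20 and 111, SE 0.79, adjusted p = 0.101), edgeR called 0, and without Q92 replicate 1 there was 1 (Hoxa4). The repeat length takes only 4 values, and this fit counts the 2 libraries of a line as independent: with 1 mean per line, 0 of all genes were called in place of 2909.

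In mESC, before differentiation, the Hox genes were low in every genotype. The 37 listed genes summed to 5.44 to 22.2 CPM per library, and 0 to 2 of them were at 1 CPM or more in both libraries of a genotype. By mean the sum was highest in Q92 (16.1 and 22.2) and lowest in Q111 (5.44 and 9.7), the same lines as in NPC. The Q111 libraries overlapped those of WT, of KO (8.38 and 14.5) and of Q20 (6.61 and 12.7), so the low place of Q111 was not beyond the spread. WT stood at 8.17 and 9.7 CPM, below both Q92 libraries, while those of Q50 (12.9 and 16.9) overlapped Q92. These sums were not tested. Of the 4 tested genes, among them Hoxa10, Hoxb13 and Hoxd13, limma called 0 in KO against WT (0.0144% of all genes tested were called), 0 in Q20 against WT (0.323%) and 0 for any difference among genotypes (0.201%). At an unadjusted p under 0.05 these counts were 0, 0 and 1 (Hoxb13), and edgeR called 0 in each. With the replicate number as a block, 0 of the 4 were called as well, but the calls over all genes rose from 2 to 16, from 45 to 1475 and from 28 to 1206. The feeder markers summed to 301 to 980 CPM in mESC, and the share of these Hox reads that came from feeders was not tested.

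Other genes of the pathway were counted from lists, to be read beside the shares of all genes tested that were called higher and lower: 0.878% and 0.545% in KO, 9.97% and 4.57% in Q20, 4.54% and 2.08% in Q50, 3.42% and 5.25% in Q92, and 8.74% and 7.9% in Q111. Of the 9 PBX and MEIS family cofactors, all tested in NPC, 0 were called in KO, Q20, Q50 or Q92 against WT, and 3 were lower in Q111, among them Meis2 (-1.41, SE 0.36, adjusted p = 0.0333) and Pbx2 (-0.81, SE 0.22, adjusted p = 0.0422). Of 18 tested genes of the retinoic acid pathway, 0 were called in KO, 7 higher and 3 lower in Q20, 2 higher and 0 lower in Q50, 2 higher and 1 lower in Q92, and 3 higher and 1 lower in Q111. Of 24 Polycomb and Trithorax genes, 1 was called higher in KO, Ash2l (0.78, SE 0.11, adjusted p = 0.0181), a subunit of histone H3K4 methyltransferase complexes. The other counts of that list were 2 higher in Q20, 0 in Q50, 1 higher and 1 lower in Q92 and 3 higher and 1 lower in Q111. In Q92 Dot1l was higher (0.83, SE 0.19, adjusted p = 0.0335) and the Polycomb subunit Cbx7 lower (-2.55, SE 0.38, adjusted p = 0.00668). Cbx7 was also lower in Q111 (-2.24, SE 0.38, adjusted p = 0.00788). Of 6 tested axial regulators, 0 were called in KO or Q50, Zic1 was lower in Q92 (-4.93, SE 0.54, adjusted p = 0.00171), and in Q111 2 were lower, among them Nr6a1 (-1.12, SE 0.18, adjusted p = 0.00562). In Q20 Nr6a1 was called higher and Zic1 lower. Outside KO, genes of these lists were chosen for naming after their values were seen.

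Genes next to the clusters were examined as well. Of 14 tested neighbours within 250 kb that are not Hox genes, 0 were called in KO, 1 higher and 1 lower in Q20, 0 higher and 1 lower in Q50, 0 higher and 1 lower in Q92, and 3 higher and 1 lower in Q111. Of all genes tested, 9.97% were called higher and 4.57% lower in Q20, 2.08% lower in Q50, 5.25% lower in Q92, and 8.74% higher and 7.9% lower in Q111. Skap2, which lies 143 kb from the 3′ end of HoxA, was at 393 CPM in WT, 390 in KO, 201 in Q20, 148 in Q92 (-1.39, SE 0.18, adjusted p = 0.00344) and 86.1 in Q111 (-2.16, SE 0.18, adjusted p = 0.000222). It was called lower in Q20 too. In Q111, Atp5g1 (1.01, SE 0.28, adjusted p = 0.0425) and Ube2z (0.93, SE 0.22, adjusted p = 0.0253), neighbours of HoxB, were higher, where 3 tested HoxB genes were lower.

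Markers of other positions and cell types differed among the same libraries. Otx2, a forebrain and midbrain gene, was at 0.455 and 0.245 CPM in WT, 0.591 and 0.3 in KO, 14.8 and 16.5 in Q20, 12.1 and 18.5 in Q50, 0 and 0 in Q92 and 4.95 and 8.72 in Q111. The shares of all genes tested called higher and lower were 9.97% and 4.57% in Q20, 4.54% and 2.08% in Q50, 3.42% and 5.25% in Q92, and 8.74% and 7.9% in Q111. Of the 7 tested forebrain and midbrain genes, 0 were called in KO. In Q20 2 were higher (Otx1 and Otx2) and 2 lower, and in Q50 2 were higher (Otx2 and Six3). In Q92 2 were lower (Lhx2 and En2), and in Q111 2 were higher and 1 lower. In Q111 these were Otx2 (2.50, SE 0.28, adjusted p = 0.000979), Otx1 (2.97, SE 0.15, adjusted p = 2.08e-05) and Lhx2 (-1.82, SE 0.30, adjusted p = 0.00718). The 18 fibroblast and feeder markers summed to 589 and 564 CPM in WT, 422 and 380 in KO, 815 and 762 in Q20, 1641 and 1645 in Q50, 400 and 424 in Q92 and 680 and 700 in Q111. Their sum was lowest in KO and Q92. Of the 16 tested, 0 were called higher and 1 lower in KO (Col3a1, -1.07, SE 0.16, adjusted p = 0.0242). In Q20 7 were higher and 0 lower, in Q50 10 and 0, in Q92 1 and 7, and in Q111 1 and 6. The pluripotency markers summed to 108 and 106 CPM in Q20, with Pou5f1 at 90.1 and 87.4, against 4.76 to 26.6 in the other NPC libraries. Of 7 tested neural crest markers 1 was called in KO, Pax7, also a gene of the dorsal neural tube, which was higher (1.85, SE 0.18, adjusted p = 0.00357), while the median change of the 7 was -0.39. In Q20 3 of the 7 were higher and 1 lower, in Q50 0 and 1, in Q92 1 and 1, and in Q111 1 and 1. Of all genes tested in KO, 0.878% were called higher and 0.545% lower. The part of these markers in the Hox differences was not tested.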

How the data were processed

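Total RNA of 12 mESC and 12 NPC libraries was read on an Illumina NextSeq 500 as paired ends, and the submitters' processing notes name CASAVA 1.8, STAR and the build GRCm38.p6. The counting tool, its strand setting and the authors' gene filter are not given in the sources used here. The values the authors deposited are a normalised CPM signal per gene, 1 table per cell type. All values of all columns were whole multiples of the worth of 1 read within 0.05 reads (100% in each of the 24 libraries), so reads could be recovered for an alternative test; levels were not compared across the tables.

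limma 3.58.1 (R 4.3.3) was fitted to log2(CPM + 1) of all 12 libraries of a cell type, with 6 group means and a trended prior, over genes at 1 CPM or more in at least 2 libraries (13206 in NPC, 13916 in mESC). The threshold for a call was 0.05 on the p adjusted over all genes tested (Benjamini-Hochberg). A fold change on this scale understates the change of low genes, so ratios of mean CPM are given beside it, against a floor of 3 reads over the group where a group was at 0. Ratios with a group just above that floor rest on few reads. edgeR 4.0.16 was run on the recovered reads as an alternative, and both tests were tested on simulated data. Other alternatives were the pseudocount, the filter, median-of-ratios and quantile scaling, the libraries fitted, a replicate block and leaving out each replicate.

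Levels were divided by the merged exon length in GENCODE M21 (GRCm38), to which 99.8% of the NPC genes and 99.6% of the mESC genes matched. Values in every library are given for at most 2 genes per cluster and class, those with the highest mean CPM in NPC, and for every gene called in KO, 18 in all. Full statistics go to the genes called in KO and to the 3 largest changes each way in the other comparisons. The Hox genes and the lists were chosen with earlier results of these data known, and no list was tested as a set. The values of a few single genes are not reported here, while sums and counts include them.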

Additional observations from a re-analysis of the deposited data

How the results depend on the processing

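The counts of called Hox genes stayed within 1.5 times their value with a pseudocount of 0.25, median-of-ratios scaling and quantile normalization, and without the filter except for any difference in mESC, where 1 gene (Hoxd8) was then called. edgeR called 3 Hox genes in KO against WT; the cause was not tested. A fit on the libraries of the compared groups alone, which leaves 2 residual degrees of freedom, called 0 for KO, 1 for Q20, 0 for Q50, 0 for Q92 and 0 for Q111 against WT. Leaving out 1 replicate gave 6 to 10 called in KO against WT, 2 to 6 in Q20, 2 to 7 in Q50, 7 to 10 in Q92 and 4 to 11 in Q111, 4 to 5 in Q50 against Q20, 7 to 8 in Q92 against Q20 and in Q111 against Q20, 17 to 21 for any difference in NPC, and 0 to 1 for the CAG trend; the lone sample of an arm is then assumed to vary like the others.

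Posterior minus anterior with a pseudocount of 0.25 was 3.33 in KO, -0.40 in Q20, -0.07 in Q50 (reversed) and 3.30 in Q92. Over the tested genes alone it was 0.06 in Q20 (reversed), 0.86 in Q50, 3.17 in Q92 and 2.10 in Q111. With groups 1 to 3 against 10 to 13 it was 2.14 in Q92. Hoxa10 is the only gene of groups 10 to 13 listed in NPC, so that value sets a single gene against the anterior median. Leaving out 1 replicate gave 1.51 to 3.15 in KO, -0.29 to 0.04 in Q20 (reversed at 0.04, without Q20 replicate 1), 0.47 to 1.02 in Q50, 2.58 to 2.91 in Q92 and 1.85 to 2.07 in Q111. The cause was not tested.

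With the replicate number as a block, 7 Hox genes were called in KO against WT (Hoxd8 was lost), and the other counts were 6 in Q20, 5 in Q50, 10 in Q92 and 10 in Q111 against WT, 8 in Q50, 9 in Q92 and 12 in Q111 against Q20, 20 for any difference in NPC, and 0 for the CAG trend and in mESC. In mESC the block raised the calls over all genes, as given with those comparisons. The labels give only a number as pairing. Deviations of same-numbered libraries correlated between genotypes with a median of 0.00023 in NPC (-0.0495 to 0.467) and 0.463 in mESC (0.25 to 0.547). The highest NPC value, 0.467, was that of WT with KO, and the next was 0.17 for WT with Q50. The reported fit of KO against WT used no block. Genes under the filter carry few reads and were not tested in the fit reported.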
